A study of Homo sapiens with 21 samples.

Results

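The 35 genes described here encode the chaperones, folding enzymes, degradation factors, channel subunits and stress sensors of the endoplasmic reticulum (ER), the compartment in which secreted and membrane proteins fold. The list is one of gene names grouped by known role, drawn up with earlier results of these data known, and uses no measured value as a criterion. The names were matched by symbol to the Ensembl identifiers of the deposited files. All 35 were found among the 61541 genes of the gene count table and among the 57300 gene names of the exon bin files. In the exon bin files, 4 of them (HSP90B1, DNAJB11, CANX and SYVN1) stood under a name that joins them with other genes, so their bin sums include those genes. For SYVN1 these include FAU, and its bin sum, which enters the counts of members in the eRNA experiments, cannot be read as SYVN1 alone.

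All 21 libraries came from K562, an established human erythroleukemia line, grown in RPMI 1640 with fetal bovine serum, and each of the 7 groups held 3 libraries. An enhancer upstream of the transcription factor gene MYB makes a pair of enhancer RNAs (eRNAs), and each was overexpressed separately: the groups 34kn and 34kp are the eRNA libraries, and the groups labelled 34knContol and 34kpContol are their own controls, called here the 34kn control and the 34kp control. In the third experiment, libraries labelled empty vector were set beside libraries labelled MYB overexpression and NMYB overexpression; the design text speaks of MYB and of MYB truncated at its N terminus. The labels give no vector, promoter, clone or time, and nothing says that the replicates came from separate cultures, so the p-values measure the spread between these libraries, which may be technical.

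When unfolded proteins gather in the ER, the chaperone HSPA5 (BiP) is drawn away from 3 sensors in the ER membrane, ERN1 (IRE1), EIF2AK3 (PERK) and ATF6. ERN1 splices the mRNA of XBP1 into the form that encodes an active transcription factor, ATF6 is cut in the Golgi to release another, and EIF2AK3 slows translation while allowing ATF4, and through it DDIT3 (CHOP), to be made. XBP1 and ATF6 raise chaperones and degradation factors through promoter elements known as ERSE and ERSE-II. Cells of high protein output, such as plasma cells, depend on this response, and erythroleukemia cells express most of its genes.

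The gene count libraries held 16552237 to 24462819 counts, and the exon bin libraries held 36563252 to 41243796 bin counts, in which a read that spans several bins can count in each. Gene counts and bin counts came from different aligners and were normalised separately, so no test crosses them. Both kinds are given here as CPM, counts scaled to a library size of 1000000 after TMM scaling. The erythroid markers of the line were measured in every library (11 genes in the gene table and 9 in the bin files, none at 0), with a summed level of 1961 to 2344 CPM in the gene table and 8283 to 13390 CPM in the bin sums. The 6 plasma cell markers summed to 1.34 to 3.54 CPM, and 1 to 4 of them were at 0 in each library. MYB itself measured 222 to 231 CPM in the libraries labelled MYB overexpression and 210.3 to 219 CPM with empty vector (edgeR quasi-likelihood test, log2 0.08, adjusted p = 0.23), which did not pass. In the libraries labelled NMYB it measured 215.3, 201.8 and 217.2 CPM and did not pass either (edgeR quasi-likelihood test, log2 -0.03, adjusted p = 0.727). Levels of the eRNAs were not analysed here. Reads set aside for low alignment quality were taken as a percentage of bin counts and reads not given to a bin. They made up 4.46 to 4.64% in the 34kp libraries, against 7.14 to 8.35% in the 34kp controls. The part of this difference in the results below was not tested. Replicate 1 of the 34kn control stood apart from its group in several genes and bins described below.

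With empty vector, the members spanned a wide range of levels per length of transcript (CPM per kilobase of all exons joined, GENCODE 29). CALR, a calcium-binding lectin chaperone, was the highest at 281 ± 10.2 CPM per kilobase (SD, n = 3). HSPA5 followed at 180 ± 3.86, the membrane lectin chaperone CANX at 171 ± 4.36 and HSP90B1, the HSP90 of the ER, at 150 ± 6.11; CANX and HSPA5 lay within about the sum of their spreads, and the other neighbours among these did not. The disulfide isomerases P4HB and PDIA3 measured 99.4 ± 4.02 and 92.8 ± 4.65, which did not separate them beyond their spread. The sensors were much lower, at 12.4 ± 0.702 for ATF6, 3.36 ± 0.0824 for EIF2AK3 and 2.41 ± 0.318 for ERN1, with XBP1 at 20.6 ± 0.783. DERL3, a degradation factor of secretory tissues, was the lowest at 0.518 ± 0.0419.

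The promoters of the members were searched for the elements through which XBP1 and ATF6 act, on both strands, in windows of 300 bases (250 before and 50 after each RefSeq start, GRCh38.p14) that were available for 32 of the 35. The ERSE, spelled CCAAT, 9 bases of any kind and CCACG, was found in 9 of these 32 members and in 0.0769% of all 35116 promoter windows. The ERSE-II, spelled ATTGG, 1 base of any kind and CCACG, was found in 3 members and in 0.0541% of all windows. HYOU1 held the XBP1 element TGACGTGG, found in 0.729% of all windows, and there its last 5 letters lie on an ERSE-II; HERPUD1 held the ATF4-type element TGATGCAA, found in 0.866%. With the members chosen for this pathway, the high share of the first 2 elements is a description. The stretches before the start of 4 members are printed: HSPA5, HERPUD1 and SDF2L1, which carry the largest differences below among members with an element, and CALR, the member of highest level. They read 5′ to 3′ on the gene's strand and end where an annotated exon begins, with the ERSE or ERSE-II in capitals (an element on the other strand appears as its reverse complement).
HSPA5 (chr9:125241344-125241593, minus strand, ERSE): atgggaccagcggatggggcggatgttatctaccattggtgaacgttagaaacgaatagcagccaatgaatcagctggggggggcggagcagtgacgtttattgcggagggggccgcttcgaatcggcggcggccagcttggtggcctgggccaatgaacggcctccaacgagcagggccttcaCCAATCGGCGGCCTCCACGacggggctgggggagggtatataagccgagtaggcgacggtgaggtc
HERPUD1 (chr16:56931892-56932047, plus strand, ERSE-II): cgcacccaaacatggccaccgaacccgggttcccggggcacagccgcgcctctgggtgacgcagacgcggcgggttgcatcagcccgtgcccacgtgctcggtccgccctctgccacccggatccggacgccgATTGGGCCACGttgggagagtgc
SDF2L1 (chr22:21642052-21642260, plus strand, ERSE-II on the other strand): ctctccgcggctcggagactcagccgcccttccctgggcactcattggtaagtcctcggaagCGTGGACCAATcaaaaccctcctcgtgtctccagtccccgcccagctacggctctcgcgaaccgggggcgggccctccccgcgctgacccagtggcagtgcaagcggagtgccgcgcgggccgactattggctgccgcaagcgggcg
CALR (chr19:12938359-12938577, plus strand, ERSE on the other strand): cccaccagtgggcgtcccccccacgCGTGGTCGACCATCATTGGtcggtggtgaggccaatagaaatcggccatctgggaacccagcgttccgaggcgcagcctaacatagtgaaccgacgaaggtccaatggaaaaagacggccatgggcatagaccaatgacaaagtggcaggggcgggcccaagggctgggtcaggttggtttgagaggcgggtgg

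**Figure D1:**
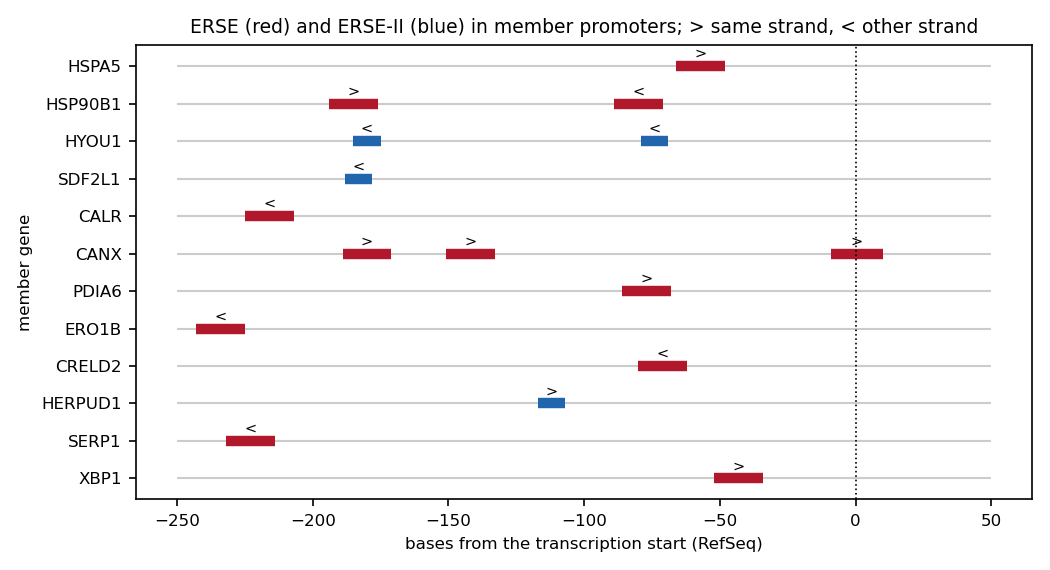
Positions of ERSE (red) and ERSE-II (blue) matches in the promoter windows of the 12 members that hold one, in bases from the RefSeq start (x axis), 1 line per gene. In HSPA5 the ERSE spans bases -66 to -48, and in HERPUD1 the ERSE-II spans -117 to -107. CANX is drawn with the matches of all its listed starts on 1 line, and its marks are 1 genomic site seen from different starts.

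The first comparison asked which of these genes differed between libraries labelled MYB overexpression and empty vector, tested over 15823 genes. SDF2L1, a partner of the luminal HSP70 system, stood out with a 2.03-fold higher level and was the only member to change by more than 1.5-fold. The lectin chaperones CALR and CANX, the folding partner DNAJB11 and the translocon protein SERP1 were modestly higher, and the oxidase gene ERO1B was lower. In all, 11 of 35 members passed the edgeR test at an adjusted p of 0.05, 9 higher and 2 lower, where 22.3% of all genes tested passed (9.62% higher and 12.7% lower). The members' median log2 fold change was 0.07, beside 0.01 over all genes tested. In 15 members all 3 libraries labelled MYB lay above all controls and in 6 all lay below, against 19.8% and 20.7% of all genes. Without MYB replicate 3 the count of members that passed was 7, beside 15.8% of all genes. More than 1 in 5 of all genes passed as well, and the members' share is to be read against that. The erythroid marker sum was 1961 to 2072 CPM in the libraries labelled MYB, 2097 to 2105 CPM in those labelled NMYB and 2142 to 2344 CPM with empty vector, without overlap. With MYB the erythroid markers GATA1, TFRC and HBE1 fell and KLF1 rose, 4 of 11, and the megakaryocytic sum was 20.7 to 22.5 CPM against 26.3 to 27.8 CPM. With NMYB 2 of 11 erythroid markers rose, KLF1 and HBG1, and TFRC fell. The part of these shifts in the members' changes was not tested.

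SDF2L1 measured 55.0, 84.9 and 76.6 CPM with empty vector and 129, 156 and 154 CPM in the libraries labelled MYB. All 3 of the latter lay above all controls (log2 1.02 ± 0.22 SE, edgeR adjusted p = 0.0176), and the 95% interval of the fold ran from 1.42 to 2.92. The call was lost in 2 of the 9 fits that left out a library: without MYB replicate 2 or 3 the adjusted p was 0.0506 and 0.0599. DNAJB11, a J-domain cochaperone of HSPA5, rose from 47.2, 54.1 and 52.1 CPM to 57.4, 58.8 and 64.5 CPM (log2 0.24 ± 0.07, edgeR adjusted p = 0.0139); without empty vector replicate 1 or MYB replicate 3 the adjusted p was 0.0618 and 0.0814. HSPA5 itself did not pass, at 693, 695 and 720.2 CPM with empty vector against 659.7, 659 and 684 CPM (log2 -0.07 ± 0.04, edgeR adjusted p = 0.167), although all 3 libraries labelled MYB lay below all controls. HSP90B1 overlapped between the groups, at 734, 677 and 700.4 CPM against 688, 679.9 and 707 CPM.

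Both lectin chaperones, which hold sugar-bearing proteins until they fold, rose. CALR went from 731, 785 and 768 CPM to 899.7, 884 and 885 CPM (log2 0.22 ± 0.04, edgeR adjusted p = 0.000217). CANX went from 1084, 1033 and 1075 CPM to 1232, 1199 and 1275 CPM (log2 0.22 ± 0.05, edgeR adjusted p = 0.00255). In each case every library labelled MYB was above every control. Among the 6 disulfide and proline isomerases only ERO1B passed; it encodes an oxidase that feeds disulfide bonds to the isomerases, and it fell from 9.61, 7.79 and 8.87 CPM to 6.47, 5.75 and 6.59 CPM (log2 -0.49 ± 0.11, edgeR adjusted p = 0.00444).

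MANF, a small secreted protein of stressed ER, rose from 19.9, 21.1 and 21.6 CPM to 26.8, 25.2 and 26.5 CPM (log2 0.33 ± 0.07, edgeR adjusted p = 0.00269). Of the 10 members that work in ER-associated degradation, in which misfolded proteins are drawn out of the ER and destroyed, 3 rose and 1 fell. SEL1L, the scaffold of the main ubiquitin ligase, rose from 44.2, 44.4 and 45.6 CPM to 54.5, 53.1 and 55.0 CPM (log2 0.28 ± 0.06, edgeR adjusted p = 0.003). SYVN1, the ligase that SEL1L holds, fell from 84.7, 85.7 and 83.7 CPM to 74.7, 81.5 and 72.5 CPM (log2 -0.15 ± 0.05, edgeR adjusted p = 0.0481). SYVN1 is the least secure of these calls: it was lost under RLE and upper-quartile scaling, with DESeq2, without the low-count filter and in 7 of the 9 fits that left out a library. The channel component DERL1 rose from 58.8, 62.7 and 63.4 CPM to 69.1, 66.6 and 70.2 CPM (log2 0.16 ± 0.05, edgeR adjusted p = 0.0466), a call that was lost with DESeq2 (0.0681), without the filter (0.128) and in 6 of the 9 fits that left out a library. SELENOS, a selenoprotein that recruits the extraction machinery, rose from 35.4, 33.0 and 31.6 CPM to 39.1, 40.1 and 38.3 CPM (log2 0.23 ± 0.06, edgeR adjusted p = 0.00942); without empty vector replicate 3 the adjusted p was 0.0565.

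In the translocon group, SERP1, a protein that steadies the translocation channel under stress, rose from 164, 162 and 167 CPM to 189.5, 193 and 208 CPM (log2 0.26 ± 0.05, edgeR adjusted p = 0.000502), with no overlap between the groups. None of the 5 sensors and transcription factors passed. XBP1 measured 64.8, 62.2 and 60.1 CPM with empty vector and 61.1, 58.9 and 63.1 CPM in the libraries labelled MYB. ATF6 measured 102, 91.5 and 98.9 against 94.7, 96.3 and 95.8 CPM, ERN1 28.2, 22.2 and 28.2 against 25.8, 26.0 and 24.0 CPM, and EIF2AK3 18.8, 17.9 and 18.1 against 19.6, 19.0 and 19.2 CPM. XBP1, ATF6 and ERN1 overlapped between the groups, and for EIF2AK3, whose groups did not overlap, the edgeR adjusted p was 0.491. These are levels of whole transcripts; the splicing of XBP1 mRNA and the cutting of ATF6 do not show in them.

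In the second comparison, libraries labelled NMYB overexpression were set against the same empty vector libraries, so both comparisons share their controls. Here 12 of 35 members passed, 9 higher and 3 lower, where 24.9% of all 15823 genes tested passed (12.6% higher and 12.4% lower); the members' median log2 fold change was 0.07, beside 0.01 over all genes. The groups did not overlap in 14 members that were higher and 5 that were lower, against 19.4% and 19.5% of all genes. SDF2L1 reached 189, 264 and 178 CPM, against the same 55.0, 84.9 and 76.6 CPM with empty vector. This is 2.92-fold higher, with a 95% interval of 2.03 to 4.19 (log2 1.54 ± 0.22, edgeR adjusted p = 0.00295), and replicate 2 was well above the other libraries labelled NMYB. DNAJB11 measured 65.1, 58.0 and 60.8 CPM (log2 0.26 ± 0.07, edgeR adjusted p = 0.00642), and its adjusted p was 0.0501 without empty vector replicate 1.

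HSPA5, the chaperone that holds the sensors inactive, measured 673, 647 and 674 CPM, all 3 below every control, and did not pass (log2 -0.08 ± 0.04, edgeR adjusted p = 0.129). HSP90B1 measured 728, 599 and 703 CPM and overlapped the controls. CALR rose to 947, 935 and 918 CPM (log2 0.29 ± 0.04, edgeR adjusted p = 1.37e-05). CANX, at 1165, 1017 and 1160.0 CPM, overlapped the controls (log2 0.07 ± 0.05, edgeR adjusted p = 0.332).

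Among the isomerases PDIA4 went from 277, 284 and 276 CPM to 310.5, 302 and 297 CPM (log2 0.12 ± 0.04, edgeR adjusted p = 0.0287), a small change whose call was lost when any of the empty vector libraries or NMYB replicate 1 was left out, without the filter and in a fit of these 6 libraries alone. In the libraries labelled MYB, PDIA4 measured 295, 296 and 296 CPM and did not pass. ERO1B fell to 6.66, 5.87 and 5.52 CPM (log2 -0.54 ± 0.12, edgeR adjusted p = 0.00225). Both secreted stress proteins rose. MANF reached 29.1, 26.4 and 25.7 CPM (log2 0.38 ± 0.07, edgeR adjusted p = 0.000821). CRELD2 went from 12.7, 13.3 and 13.4 CPM to 15.3, 21.1 and 15.4 CPM (log2 0.38 ± 0.11, edgeR adjusted p = 0.0174); replicate 2 carried much of this, and without it the log2 fold change was 0.22 with an adjusted p of 0.0871.

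Of the 10 degradation members 1 rose and 1 fell. SELENOS rose to 42.0, 41.7 and 42.6 CPM (log2 0.33 ± 0.06, edgeR adjusted p = 0.000506). EDEM1, a lectin that hands misfolded glycoproteins to degradation, fell from 49.7, 51.6 and 50.5 CPM to 43.3, 43.2 and 44.5 CPM (log2 -0.21 ± 0.05, edgeR adjusted p = 0.00743); in the libraries labelled MYB it measured 47.8, 48.5 and 46.5 CPM and did not pass. SEL1L at 48.0, 45.2 and 53.4 CPM, SYVN1 at 80.6, 84.8 and 80.0 CPM and DERL1 at 69.3, 63.2 and 67.1 CPM overlapped the controls and did not pass. HERPUD1, an ER membrane protein that assembles the degradation complex, measured 27.8, 29.8 and 28.2 CPM with empty vector, 26.1, 27.7 and 29.1 CPM in the libraries labelled MYB and 30.6, 33.8 and 30.7 CPM in those labelled NMYB, and passed in neither comparison (edgeR adjusted p = 0.645 and 0.129).

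Of the 3 translocon members 2 rose. SERP1 reached 226, 214 and 213 CPM (log2 0.41 ± 0.05, edgeR adjusted p = 5.06e-06). SEC61B, the beta subunit of the channel, went from 62.8, 63.1 and 57.7 CPM to 71.8, 71.5 and 73.3 CPM (log2 0.24 ± 0.05, edgeR adjusted p = 0.00346), while the libraries labelled MYB measured 62.7, 64.2 and 67.6 CPM and did not pass. CREB3L2, a transcription factor released from the ER membrane by cutting, fell from 119, 118 and 124 CPM to 103, 103 and 104 CPM (log2 -0.22 ± 0.05, edgeR adjusted p = 0.00252); the libraries labelled MYB measured 116, 109 and 109 CPM. The sensors did not pass: XBP1 measured 70.3, 62.3 and 64.0 CPM, ATF6 93.2, 80.6 and 92.4 CPM, ERN1 22.7, 24.1 and 24.1 CPM and EIF2AK3 17.5, 16.5 and 18.0 CPM, each overlapping the controls.

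**Figure D2:**
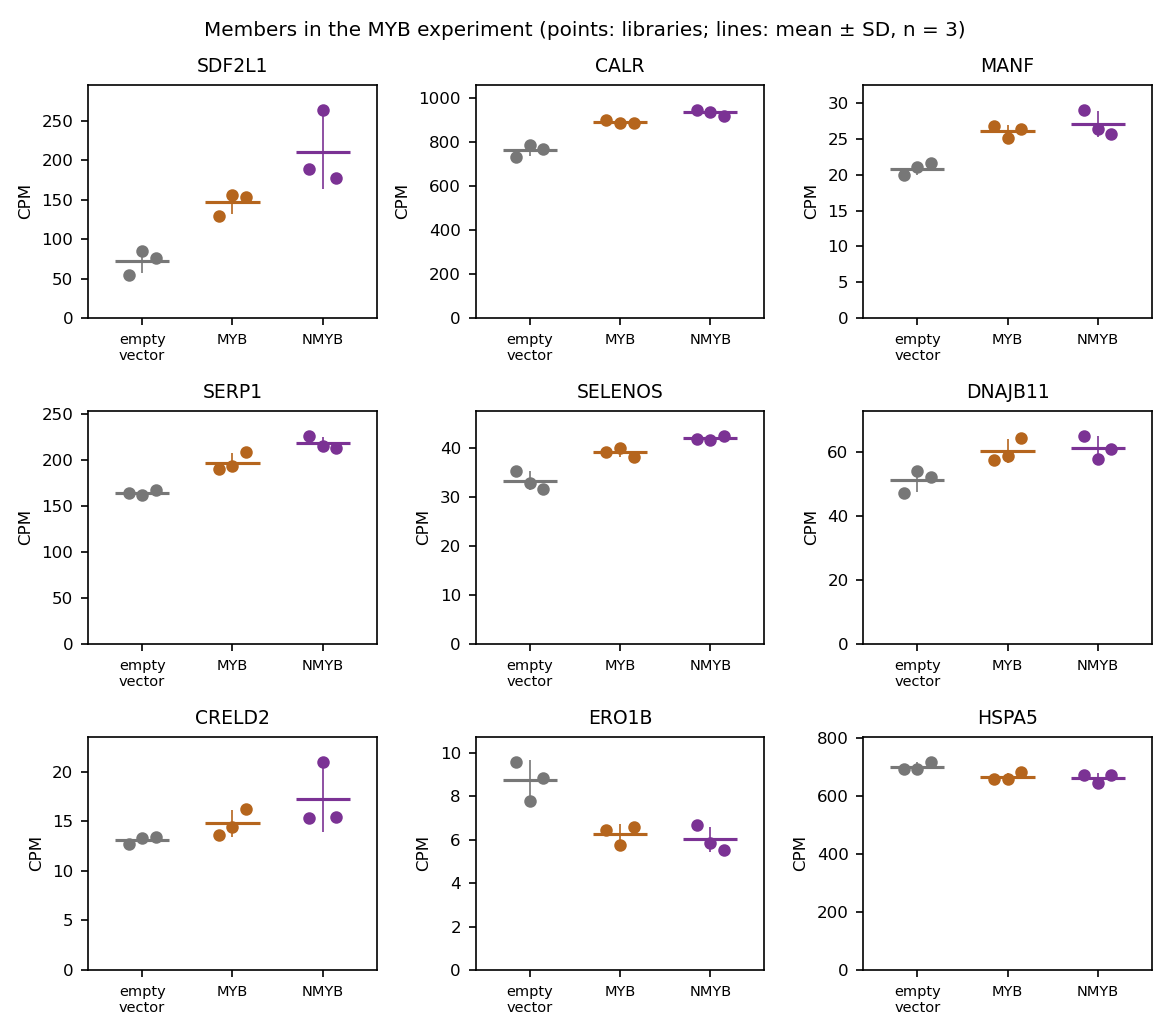
Level of 9 members in CPM (y axis, from 0) in the 9 libraries of the MYB experiment; points are libraries, horizontal lines are means and vertical lines are ± SD (n = 3). SDF2L1 lies between 55.0 and 84.9 CPM with empty vector and between 129 and 264 CPM in the other libraries, while HSPA5 stays between 647 and 720.2 CPM throughout.

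The direct comparison of the libraries labelled NMYB with those labelled MYB found no member past the threshold with edgeR, and none with DESeq2. Of all genes, 1.14% passed with edgeR (0.518% higher and 0.626% lower). With DESeq2 6.6% passed of the 6621 genes that were given an adjusted p. An unadjusted edgeR p below 0.05 was found for 9 of 35 members, beside 2806 of all 15823 genes tested. SDF2L1 was 1.43-fold higher with NMYB (log2 0.52 ± 0.21, adjusted p = 0.265), with a 95% interval of 1.02 to 2.03. CANX was lower in all 3 libraries labelled NMYB (log2 -0.15 ± 0.05, edgeR adjusted p = 0.113), and SERP1 higher in all 3 (log2 0.15 ± 0.05, edgeR adjusted p = 0.114). Members that passed in only 1 of the comparisons with empty vector are therefore not shown to differ between the constructs.

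Genes that work beside the members were taken from 8 lists. The counts of each list are to be read against all genes tested, of which 22.3% passed with MYB and 24.9% with NMYB. Of all genes, 9.62% were called higher and 12.7% lower with MYB, and 12.6% and 12.4% with NMYB. In the PERK and ATF4 arm, 3 of 11 rose in the libraries labelled MYB and none fell, and 4 rose and 1 fell in those labelled NMYB. DDIT3, the factor CHOP, went from 20.2, 17.9 and 19.4 CPM with empty vector to 24.6, 25.0 and 26.5 CPM in the libraries labelled MYB (log2 0.40 ± 0.07, edgeR adjusted p = 0.000408) and 25.4, 23.7 and 25.4 CPM in those labelled NMYB (log2 0.38 ± 0.07, edgeR adjusted p = 0.000873). ATF4, its activator, did not pass, at 332, 319 and 339.5 CPM with empty vector, 309.6, 304 and 303 CPM with MYB and 336, 345 and 317 CPM with NMYB. CEBPB rose by log2 0.53 and 0.99, and ATF5 by 0.42 and 0.30, in the libraries labelled MYB and NMYB.

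Of the 23 other genes of the translocon, signal peptidase and sugar transfer, 4 rose in each comparison and none fell. The signal peptidase subunit SEC11C rose by log2 0.71 and 0.69 and SSR4, of the translocon-associated complex, by 0.33 and 0.48 with MYB and NMYB; MAGT1 rose by 0.25 with MYB and SPCS1 by 0.21 with NMYB. Of the 11 measured genes of calcium handling and ER-phagy, 2 rose and 3 fell with MYB, and 3 rose and 3 fell with NMYB. The calcium pump gene ATP2A3 fell by 0.79 and 0.59 on the log2 scale, and the calcium channel gene ITPR2 rose by 0.60 and 0.47; ITPR3 fell by 0.50 with MYB and ITPR1 by 0.42 with NMYB. Of the 17 KDEL receptor and COPII genes, which sort cargo between the ER and the Golgi, 1 fell with MYB, and 1 rose and 5 fell with NMYB. The coat gene SEC24D fell by 0.26 and 0.19, and SEC23A and SEC24A fell by 0.28 and 0.21 with NMYB.

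The remaining lists moved both ways. Of 18 other degradation genes 5 rose and 4 fell in each comparison: on the log2 scale the ubiquitin-conjugating enzyme gene UBE2J2 rose by 0.24 and 0.33, ERLIN2 rose by 0.24 with MYB and HM13 by 0.28 with NMYB. Of 18 other folding enzymes 1 rose and 4 fell with MYB, and 3 rose and 4 fell with NMYB. The oxidase gene ERO1A fell by 0.24 and 0.29, PDIA5 and QSOX1 fell by 0.34 and 0.27 with MYB, and with NMYB SDF4 rose by 0.32 and FKBP14 fell by 0.28. Of 10 glycan trimming genes EDEM3 rose by 0.17 with MYB, and with NMYB LMAN1 fell by 0.20 and PRKCSH rose by 0.15. Among 7 genes of Golgi proteases and related factors, MBTPS2 rose by 0.29 with MYB, and NFE2L1 rose by 0.25 with MYB and 0.19 with NMYB. Of the list genes named for these comparisons, CEBPB, EDEM3, ERO1A and UBE2J2 with MYB, ATF5, FKBP14, ITPR2, PRKCSH, SEC24A and SPCS1 with NMYB, and SEC24D with both lost their call in at least 1 of the 9 fits that left out a library.

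**Figure D3:**
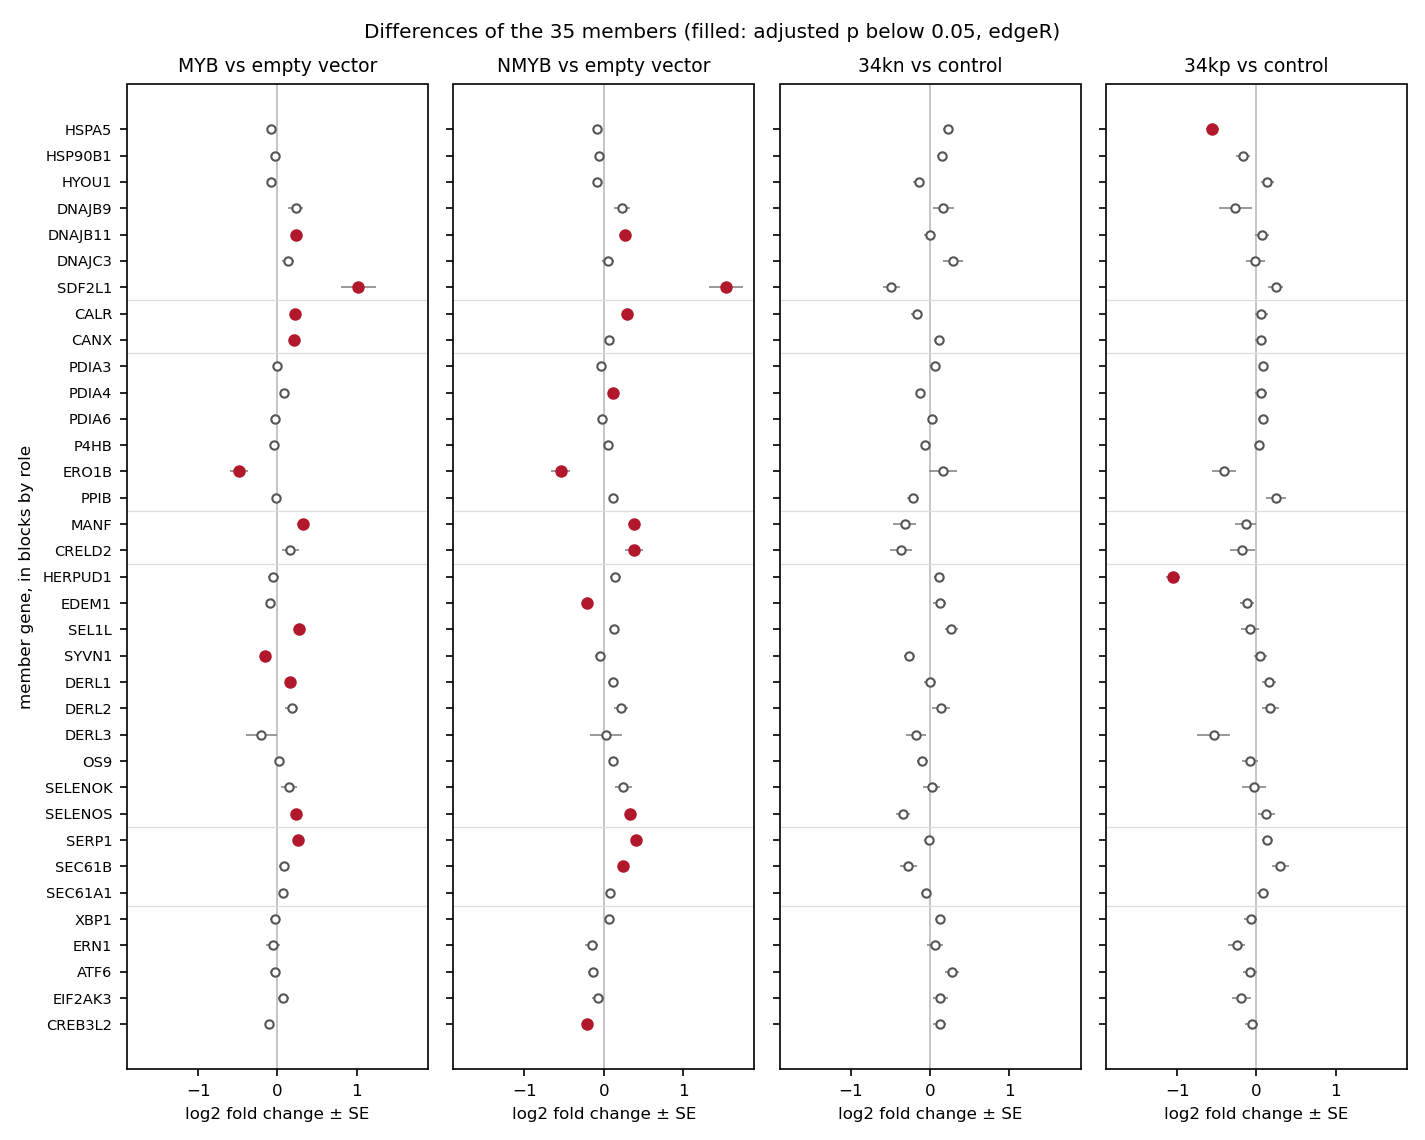
Log2 fold change ± SE of all 35 members (rows, in blocks by role) in the 4 comparisons with a control; filled red points passed an edgeR adjusted p of 0.05 and open points did not. The panels hold 11, 12, 0 and 2 filled points; SDF2L1 lies farthest right under MYB and NMYB, and HERPUD1 farthest left under 34kp.

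In the 34kn experiment no member passed with edgeR, and neither did any of the 16116 genes tested (0.0%), although 13 members and 3759 genes had an unadjusted p below 0.05; with DESeq2 6 members passed, beside 10.6% of all genes. The outcome turned on the control libraries: without 34kn control replicate 1 there were 3 members past the threshold, beside 2.71% of all genes, and without 34kn control replicate 2 there were 12, beside 18% of all genes. HSPA5 measured 368, 426 and 429 CPM in the controls and 487, 475 and 478 CPM in the 34kn libraries, all 3 above every control (log2 0.23 ± 0.07, edgeR adjusted p = 0.0866). SDF2L1 measured 189.8, 140.5 and 136 CPM against 111, 111 and 112 CPM, all 3 below (log2 -0.49 ± 0.11, edgeR adjusted p = 0.0668). HERPUD1 measured 87.4, 93.7 and 89.8 CPM in the controls and 97.3, 97.5 and 100 CPM with 34kn.

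HSP90B1 measured 721, 825 and 744 CPM against 856, 849 and 838 CPM with 34kn, and its groups did not overlap (edgeR adjusted p = 0.178). XBP1 measured 88.4, 92.7 and 93.2 CPM against 97.9, 100.3 and 102 CPM. ATF6 measured 72.2, 93.6 and 83.7 CPM against 101.4, 99.7 and 103 CPM. These factors were higher in all 3 eRNA libraries than in any control, without passing the test (edgeR adjusted p = 0.256 for XBP1 and 0.102 for ATF6). Of the remaining sensors, ERN1 measured 20.5, 17.4 and 18.8 CPM against 20.4, 19.1 and 20 CPM, and EIF2AK3 16.7, 18.9 and 18.5 CPM against 20.4, 19.4 and 19.7 CPM. Over all members the groups did not overlap in 10 genes that were higher and 8 that were lower with 34kn, where 14.3% and 14.8% of all genes tested did so. Of the 8, 1 is the joined name of SYVN1 and FAU. The erythroid marker sum was 12340 to 13390 CPM in the 34kn controls and 11690 to 12030 CPM with 34kn. The megakaryocytic sum was 11.53 to 12.73 against 9.573 to 11.36 CPM, and the epithelial and kidney sum, which rose, 72.1 to 81.77 against 86.79 to 91.71 CPM. The part of these shifts in the results was not tested.

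The 34kp experiment gave the largest falls of the members against a control. HERPUD1, an ERSE-II gene that is among the most responsive to ER stress, went from 84.2, 79.9 and 77.4 CPM in the controls to 41.7, 37.3 and 37.9 CPM. This is 0.482-fold, with a 95% interval of 0.422 to 0.551 (log2 -1.05 ± 0.09, edgeR adjusted p = 0.000274), and the call held in each alternative setting run. HSPA5 went from 586, 553 and 542 CPM to 346, 379.7 and 423 CPM, 0.681-fold with an interval of 0.602 to 0.770 (log2 -0.56 ± 0.08, edgeR adjusted p = 0.00647). In both genes every 34kp library lay below every control. The HSPA5 call was lost without 34kp control replicate 2 (adjusted p = 0.0586) and without 34kp replicate 2 (0.0754), with log2 fold changes of -0.56 and -0.53.

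These were 2 of 35 members, both lower, where 2.35% of 16662 genes tested passed (1.72% lower and 0.63% higher). HERPUD1 alone passed without 34kp control replicate 2 or 34kp replicate 2, and 5 members passed without 34kp replicate 3, beside 0.27%, 0.338% and 6.85% of all genes. The groups did not overlap in 7 members that were higher and 5 that were lower, against 10.9% and 12.9% of all genes. Of those calls over all genes 26.8% were higher; with DESeq2 the figure was 44.7%. The members' median log2 fold change was -0.01, beside -0.005 over all genes. Of the 6 other members of the HSP70 and HSP90 system none passed, and 3 had a positive log2 fold change. SDF2L1 measured 115, 117 and 121 CPM in the controls and 159, 137 and 122 CPM with 34kp, all 3 higher (log2 0.24 ± 0.10, edgeR adjusted p = 0.226). HSP90B1 measured 805, 730.0 and 752 CPM against 603, 666 and 777 CPM and overlapped (log2 -0.17 ± 0.09, edgeR adjusted p = 0.365). CALR, at 530.4, 571 and 616 CPM against 660.1, 596 and 543 CPM, overlapped too.

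Among the sensors, XBP1 measured 67.8, 69.8 and 71.6 CPM in the controls and 64.8, 65.5 and 69.0 CPM with 34kp, ATF6 92.9, 87.4 and 85.0 against 76.6, 85.3 and 89.8 CPM, and EIF2AK3 26.0, 26.0 and 22.4 against 18.6, 22.6 and 24.1 CPM. ERN1, the kinase and ribonuclease that splices XBP1 mRNA, was lower in all 3 libraries, at 12.7, 14.3 and 13.9 CPM against 16.6, 15.9 and 15.8 CPM, and did not pass (log2 -0.25 ± 0.11, edgeR adjusted p = 0.249). The level of XBP1 with 34kp lay within the sum of both groups' spreads of the control level. ERO1B, which is lower in both MYB constructs, was lower in all 3 libraries here as well, at 5.39, 4.22 and 5.21 CPM against 7.21, 6.28 and 6.13 CPM, and did not pass (log2 -0.41 ± 0.15, edgeR adjusted p = 0.187).

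In the PERK and ATF4 arm, 3 of 11 genes fell with 34kp and none rose, where 1.72% of all genes tested were called lower. CHAC1, which breaks down glutathione and is induced through ATF4, went from 13.0, 14.9 and 16.0 CPM to 4.24, 1.94 and 2.95 CPM (log2 -2.27 ± 0.23, edgeR adjusted p = 0.000591). ATF3, a stress-induced repressor, went from 29.3, 37.5 and 37.6 CPM to 14.1, 13.2 and 13.2 CPM (log2 -1.37 ± 0.12, edgeR adjusted p = 0.000307). DDIT3 went from 55.0, 60.4 and 53.0 CPM to 28.3, 24.7 and 24.8 CPM (log2 -1.12 ± 0.10, edgeR adjusted p = 0.000307). The bin name of DDIT3 joins it with an unnamed gene. In all 3 the groups were far apart, and each call held in every alternative setting run for it. ATF4 mRNA, whose control is mainly in translation, measured 233, 267 and 260.2 CPM in the controls and 248, 217 and 193 CPM with 34kp and did not pass (log2 -0.21 ± 0.10, edgeR adjusted p = 0.273).

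Outside that arm, STC2 fell by 0.51 (1 of 11 genes of calcium handling and ER-phagy) and CREB3L4, a membrane-bound transcription factor, by 0.53 (1 of 7 Golgi proteases and related factors) on the log2 scale; both calls were lost when any of the 34kp controls or 34kp replicate 2 was left out. No gene passed among 19 other folding enzymes, 10 glycan trimming genes, 18 other degradation genes, 23 other translocon genes and 17 KDEL receptor and COPII genes. In the same order, 1, 0, 4, 1 and 2 of these had an unadjusted edgeR p below 0.05, beside 2982 of all 16662 genes tested. The erythroid marker sum was 8283 to 8847 CPM in the 34kp controls and 8812 to 9215 CPM in the 34kp libraries, and the plasma cell markers summed to at most 3.00 CPM in the latter. The 4 megakaryocytic markers, of which 1 or 2 were at 0 in each library, summed to 19.45 to 20.02 CPM in the 34kp controls and 23.6 to 33.3 CPM with 34kp, without overlap. Of 9 erythroid markers ALAS2 fell (log2 -0.61, edgeR adjusted p = 0.00309), and of 3 fibroblast markers tested COL1A1 fell (log2 -0.59, edgeR adjusted p = 0.0352); none rose. The part of these shifts in the results above was not tested. In libraries of whole cultures, fewer cells that express a gene and less RNA per cell cannot be told apart.

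**Figure D4:**
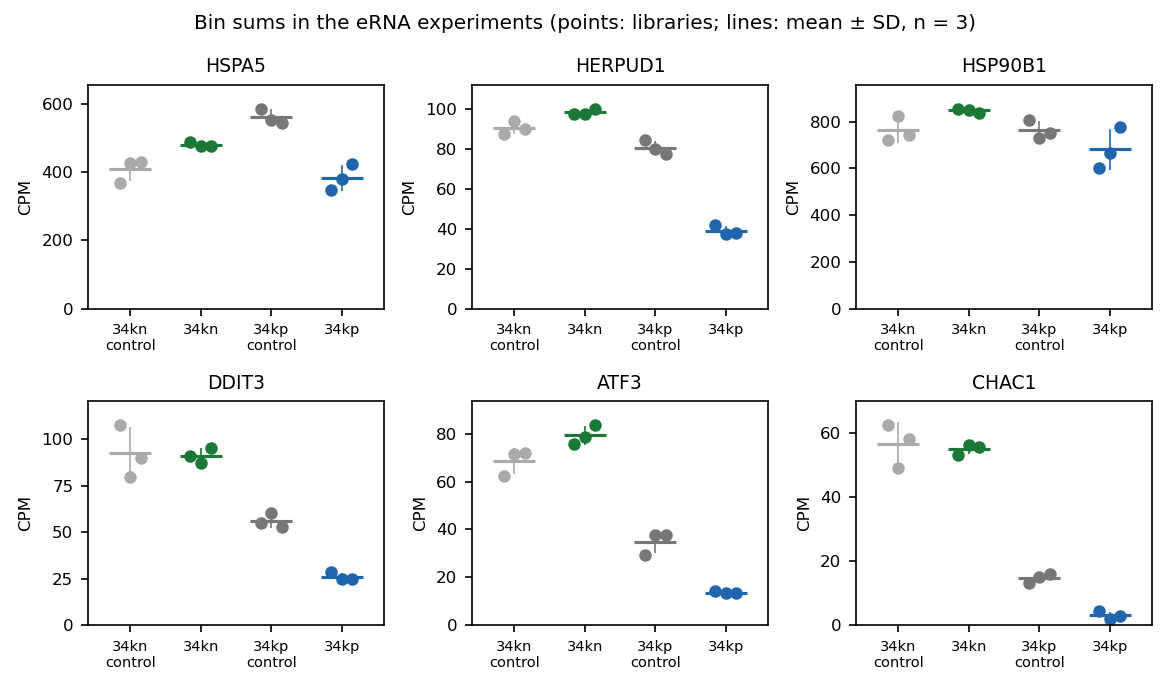
Bin sums of HSPA5, HERPUD1, HSP90B1 and the ATF4-arm genes DDIT3, ATF3 and CHAC1 in CPM (y axes, from 0) in the 12 libraries of the eRNA experiments; points are libraries, horizontal lines are means and vertical lines are ± SD (n = 3). HERPUD1 lies between 37.3 and 41.7 CPM with 34kp and between 77.4 and 100 CPM in the other 9 libraries, and DDIT3, ATF3 and CHAC1 are lower in both groups of the 34kp experiment than in the 34kn experiment.

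The effects of both eRNAs were compared by an interaction term over the 12 libraries, each effect taken against its own controls. In this test 5 of 35 members passed, 2 with a higher and 3 with a lower 34kn effect, where 6.36% of 17323 genes did (2.83% higher and 3.53% lower). Leaving out 34kn control replicate 2 gave 8 members beside 10.5% of all genes, and leaving out 34kp replicate 3 gave 10 beside 15.4%. Leaving out 34kp control replicate 3 gave 4 beside 4.78%, and leaving out any other library gave 3 beside 2.14 to 3.58%. HERPUD1 (difference of log2 effects 1.17 ± 0.10, edgeR adjusted p = 1.56e-05) and HSPA5 (0.78 ± 0.11, edgeR adjusted p = 0.000876) had the higher 34kn effect, and both calls held in each of the alternative settings run. SDF2L1 had the lower 34kn effect (-0.73 ± 0.16, edgeR adjusted p = 0.0156). SELENOS (-0.47 ± 0.13, adjusted p = 0.0481) and SEC61B (-0.58 ± 0.16, adjusted p = 0.0474) had it as well by edgeR, near the threshold, and lost it under upper-quartile scaling and, when a library was left out, in 10 of 12 such fits for SELENOS and 9 of 12 for SEC61B. In the PERK and ATF4 arm 4 of 11 genes passed, all with the higher 34kn effect, among them CHAC1 (2.23 ± 0.24), ATF3 (1.57 ± 0.14) and DDIT3 (1.09 ± 0.14).

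The levels in the control groups themselves lay apart between the eRNA experiments, and this difference was not tested. HSPA5 averaged 408 ± 34.2 CPM in the 34kn controls and 561 ± 22.7 CPM in the 34kp controls (SD, n = 3), and its level with 34kp, 383 ± 38.5 CPM, lay within the spread of the 34kn controls. HERPUD1 averaged 90.3 ± 3.15 and 80.5 ± 3.43 CPM in these controls, and its 39.0 ± 2.40 CPM with 34kp lay below both. CHAC1 averaged 56.8 ± 6.80 and 14.7 ± 1.52 CPM in the 34kn and 34kp controls. The erythroid marker sum was 12340 to 13390 CPM in the 34kn controls and 8283 to 8847 CPM in the 34kp controls.

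Exon bins are the pieces into which the transcripts of a gene divide its exons, and a bin's use is its count relative to the rest of the gene. The 35 members had 1332 bins in the files. In the 34kp experiment 4 of 822 member bins tested passed the edgeR exon usage test (diffSpliceDGE), 0.487%, where 0.00862% of 220442 bins over all genes passed, 19 in all (0.00771% used less). All 4 were bins of HSP90B1 (chr12:103930107-103953645, plus strand, GRCh38), and all were used less with 34kp. Bin 32 held 137, 144 and 102 counts in the controls and 23, 42 and 32 counts with 34kp (edgeR adjusted p = 1.44e-06). Bin 62 held 201, 172 and 163 counts against 52, 61 and 50 counts (edgeR adjusted p = 3.13e-06). Bins 23 and 35 held 75, 63 and 51 against 15, 13 and 18 counts, and 73, 59 and 50 against 15, 18 and 12 counts (edgeR adjusted p = 0.0012 and 0.00192); their calls were lost without 34kp control replicate 1, 34kp control replicate 2 or 34kp replicate 2. In each bin every 34kp library lay below every control, and the same 4 bins passed in a DEXSeq-type model.

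These bins hold few counts and lie, by bin number, between bins with many; the annotation at hand numbers the gene's bins differently, so they were not placed on introns or exons. After these values were seen, low-count bins were defined. They are those under 10% of the gene's highest bin, averaged over the 6 libraries of the 34kn experiment. In HSP90B1 they include the bins that passed above, and their share was then taken in the same 34kp libraries. The share thus restates those calls in part and is not a separate test of them. HSP90B1 had 50 low-count bins of 79. They took 4.69, 4.60 and 4.23% of its counts in the 34kp controls and 3.07, 2.84 and 2.65% with 34kp, a share 1.58 times as high in the controls (exact permutation test, two-sided, p = 0.1, the smallest that 3 against 3 allows). In the 34kn experiment the share was 5.02, 2.67 and 2.7% in the controls and 2.57, 2.35 and 2.41% with 34kn. The first control stood apart, above the 34kp controls, and the other libraries of that experiment lay below them. In that first control, bins 13, 14 and 15 held 187, 333 and 364 counts. Bins 23, 32, 35 and 62 held 8 to 23, 34 to 45, 13 to 35 and 37 to 78 counts across the 34kn experiment. In the 34kp controls the same bins held 51 to 75, 102 to 144, 50 to 73 and 163 to 201 counts, without overlap. This difference between the experiments was not tested. The share was also taken in the 28 members with at least 500 bin counts in each 34kp library and at least 2 low-count bins. In it the 34kp libraries lay below all controls in 3 (HSP90B1, CALR and ERN1) and above in 1 (CREB3L2). Of 7556 gene names that met the same limits, 6.21% and 5.49% did so. In ERN1 and CREB3L2 the low-count bins were 40 of 42 and 21 of 22 bins. They took 52.3 and 34.2% of the counts in the 34kp controls, so there the share covers nearly all bins of the gene.

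In the 34kn experiment 18 of 829 member bins passed, 2.17%, all used less with 34kn, where 0.794% of 216197 bins passed (0.772% used less). They lay in PDIA3 (5 bins), HYOU1 (5), HSP90B1 (4), SERP1 (2), HSPA5 (1) and XBP1 (1). Neighbouring bins can count the same reads: HYOU1 bins 67 and 68 both held 137, 53 and 84 counts in the controls. The 18 bins are thus not 18 separate changes. PDIA3 bin 15 held 557, 330 and 482 counts in the controls and 227, 249 and 275 counts with 34kn (edgeR adjusted p = 9.92e-05), with no overlap. HYOU1, a large HSP70 relative that exchanges nucleotide on HSPA5, had 186, 46 and 135 counts in bin 26 against 23, 53 and 59 counts (edgeR adjusted p = 0.000608), where the second control overlapped the 34kn libraries. HYOU1 bins 67 to 70 held 106 to 143 counts in control replicate 1, 34 to 53 in replicate 2, 48 to 90 in replicate 3 and 14 to 36 with 34kn. PDIA3 bins 12 and 14 held 131, 67 and 124 against 50, 53 and 57 counts and 218, 110 and 172 against 71, 89 and 115 counts, the second of these overlapping by control replicate 2. None of these bins passed in the DEXSeq-type model, where 0.0037% of all bins did. Without 34kn control replicate 1, 2 member bins passed, beside 0.158% of all bins. Without 34kn control replicate 2, 52 passed, beside 3.74% of all bins. Without 34kn replicate 1, 2 or 3, 2, 4 and 7 member bins passed, beside 0.16, 0.113 and 0.318% of all bins. Control replicate 1 held the highest count in each of the 18 bins.

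**Figure D5:**
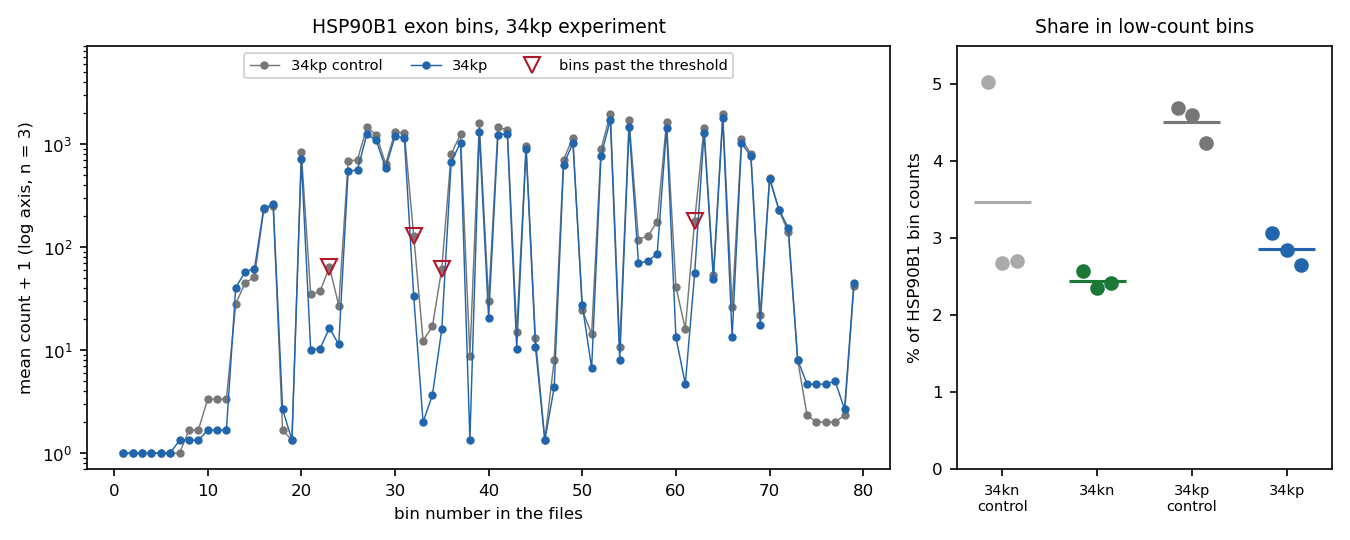
Left, mean count + 1 of the 79 HSP90B1 bins (log axis, n = 3 libraries) by bin number in the files for the 34kp controls and the 34kp libraries, with the 4 bins that passed the exon usage test marked. Right, the share of HSP90B1 counts in its 50 low-count bins in each of the 12 libraries, with group means as lines; the 34kp controls lie between 4.23 and 4.69% and the 34kp libraries between 2.65 and 3.07%.

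The members not described singly were DNAJB9 and DNAJC3, cochaperones of HSPA5, HYOU1, PDIA3, PDIA6, P4HB, the proline isomerase PPIB, DERL2, DERL3, OS9, SELENOK and SEC61A1. None passed in any of the 5 gene-level comparisons between groups. Their log2 fold changes ran from -0.20 (DERL3) to 0.23 (DNAJB9) with MYB and from -0.08 (HYOU1) to 0.25 (SELENOK) with NMYB. They ran from -0.21 (PPIB) to 0.29 (DNAJC3) with 34kn and from -0.54 (DERL3) to 0.25 (PPIB) with 34kp. DERL3 was at 3.76 to 6.37 CPM with 34kp and 5.79 to 8.17 CPM in its controls, with overlap.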

How the data were processed

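RNA of K562 cells was measured in 21 libraries made, per the labels' protocols, from TRIzol extracts with a TruSeq RNA kit. The authors deposited raw counts: a table of gene counts for the 9 libraries of the MYB experiment, and counts per exon bin for each of the 12 eRNA libraries. The submitters' processing notes name Trimmomatic 0.93, HISAT2 2.2.1, STAR 2.7.10a, featureCounts 2.0.1 and GRCh38, and the design text names DEXSeq; whether counting used strand is not given in the sources used here. Reads that the bin files list outside any bin made up 29.5 to 32.8% of all reads and did not enter library sizes. Bins were summed per gene name, and a name that joins genes was used for its member; the joined name of SYVN1 holds FAU, so its bin sum was counted as a member but is not read as SYVN1 alone.

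The tests were edgeR 4.0.16 robust quasi-likelihood F tests in R 4.3.3 after TMM scaling and filterByExpr (minimum count 10), two-sided, with Benjamini-Hochberg adjustment over all genes or bins tested and a threshold of 0.05. The MYB experiment was 1 fit of 9 libraries, each eRNA experiment a fit of 6, and the difference between eRNA effects a fit of 12. Exon usage was tested with diffSpliceDGE, which needs 2 or more bins of a gene past the filter. The standard error of a log2 fold change was taken from the F statistic. DESeq2 1.42.0, RLE and upper-quartile scaling, no filter, a replicate block, other sets of libraries and leave-one-out fits were the alternatives. The scripts were checked on simulated counts with known changes.

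The members and gene lists were chosen with earlier results of these data known. Values in every library are given for members that passed in at least 1 gene-level comparison with a control or between constructs, and for HSPA5, HSP90B1 and the sensors. Up to 3 called genes per list and comparison, with the largest change, and up to 8 called bins per eRNA experiment, with the smallest p, are named; ATF4 and DDIT3 are named in any case. The values of 1 gene that this rule names are not reported here. HERPUD1 with the constructs, CALR in the eRNA experiments and the low-count bins of HSP90B1 were added after values were seen. Promoter sequences are from RefSeq (GRCh38.p14), trimmed to bases outside exons of GENCODE 29. The planned share of XBP1 counts in the bin that ERN1 removes was not run, because the bins could not be placed with the annotation used here.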

Additional observations from a re-analysis of the deposited data

Results flagged for a closer look

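In 5 members the effects of both eRNAs, each against its own controls, differed in the interaction test over 12 libraries (edgeR quasi-likelihood test). The values below are log2 differences, 34kn effect minus 34kp effect, followed by each effect. HERPUD1 differed by 1.17, with 0.12 under 34kn and -1.05 under 34kp. HSPA5 differed by 0.78, with 0.23 and -0.56. In the opposite direction, SDF2L1 differed by -0.73 (-0.49 and 0.24), SEC61B by -0.58 (-0.27 and 0.30) and SELENOS by -0.47 (-0.34 and 0.13). The 34kn effects of these genes did not pass on their own, and of the 34kp effects those of HERPUD1 and HSPA5 passed.

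Genes of the accompanying lists differed too. In the PERK and ATF4 arm the values were 2.23 for CHAC1 (-0.05 and -2.27), 1.57 for ATF3 (0.20 and -1.37) and 1.09 for DDIT3 (-0.03 and -1.12). Higher 34kn effects were also found for KDELR3, a receptor that returns chaperones to the ER (0.78), the translocon gene SEC61G (0.63), the HSP70 relative HSPA13 (0.60), SEC24D (0.52) and STC2 (0.48). Lower 34kn effects were found for the glucosidase gene MOGS (-0.79), TMUB1 (-0.75), SSR4 (-0.65), UBE2J2 (-0.57) and the extraction ATPase gene VCP (-0.28). The bin name of VCP joins it with FANCG and an unnamed gene, and that of DDIT3 with an unnamed gene, so these values may not be theirs alone. Of these 10 genes, SSR4 kept its call in each of the 12 fits that left out a library, KDELR3 lost it in 4, SEC24D in 8, STC2 in 10 and each of the other 6 in 9.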

How the results depend on the processing

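Of the 88 called gene values and the named bins none changed sign in any setting run, and 54 of the gene values kept their call in all of them; values that did not pass were not followed across settings. The NMYB against MYB comparison had 0 members called, 1 without the low-count filter, 2 with the replicate block and 0 in each fit that left out a library. Beside these, 1.14, 1.84 and 7.48% of all genes passed, and 0 to 1.99% when a library was left out. Leaving out libraries gave 7 to 14 members for MYB, 9 to 18 for NMYB and 0 to 12 for 34kn. It gave 1 to 5 for 34kp and 3 to 10 for the difference between eRNA effects. In the same order, the shares of all genes in those fits were 15.3 to 28.6%, 16.8 to 24.1%, 0 to 18%, 0.27 to 6.85% and 2.14 to 15.4%. For 34kn, DESeq2 and no filter each gave 6 members, beside 10.6 and 5.24% of all genes. For the difference between eRNA effects, upper-quartile scaling gave 3 members, the replicate block 3 and no filter 8. Of all genes, 6.02, 3.76 and 6.22% passed in these settings. With the replicate block 1 member passed for 34kp (HSPA5 was lost, edgeR adjusted p = 0.0533), 11 for MYB and 17 for NMYB. The block gave 0.426, 27.4 and 29.8% of all genes in these comparisons. Leaving out libraries gave 2 to 52 member bins for 34kn, beside 0.113 to 3.74% of all bins. It gave 2 to 5 for 34kp, beside 0.00176 to 0.0262% of all bins. The DEXSeq-type model gave 0 member bins for 34kn, beside 0.0037% of all bins. The cause of these changes was not tested.

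Over all genes, calls for 34kn went from 0 to 1209 with DESeq2, 1572 without the filter, 447 without 34kn control replicate 1 and 2982 without 34kn control replicate 2. For 34kp they went from 392 to 879 with DESeq2, 997 without the filter, 71 with the replicate block, 817 in the fit of 12 libraries and 46 to 1175 when a library was left out. For NMYB against MYB they went from 181 to 437 with DESeq2, 656 without the filter, 1184 with the block and 60 in the fit of 6 libraries, and for the difference between eRNA effects from 1102 to 1952, 2085 and 651 with DESeq2, no filter and the block. The DEXSeq-type model called 8 bins for 34kn and 11 for 34kp, and the block 8 for 34kp. The percentage of called genes that were higher was 45.3 for NMYB against MYB and 34.9 under RLE scaling, and 44.6 for the difference between eRNA effects and 54.9 under upper-quartile scaling. Libraries with the same replicate number did not deviate together in the way pairing asks: the correlations of their deviations ran from -0.185 to 0.0994. The difference in the HSP90B1 low-count share was -1.66 percentage points, -1.8 and -1.41 with limits of 5% and 20%, and -1.55 to -1.79 when a library was left out. The planned XBP1 share and its alternative were not run. With 3 libraries a group, small changes of members at low counts, such as DERL3, cannot be told from no change.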
